A study of Arabidopsis thaliana with 12 samples.

Results

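The 9 loci that encode enzymes of proline and arginine metabolism in Arabidopsis thaliana were taken by their locus codes from a list of names, which sets no threshold on a measured value but was drawn up with earlier results of these data known. All 9 were among the 28775 genes with counts, and all 9 were among the 18388 genes with enough counts to be tested. Expression was measured by sequencing of messenger RNA from Col-0 seedlings in 12 libraries, 3 in each of 4 groups. The study compared lines deficient in SnRK1, an energy-sensing protein kinase, and in the S1 group of bZIP transcription factors with wild type during short-term darkness. The SnRK1-labelled line lacked SnRK1 alpha 1 by knockout and carried an inducible knockdown of SnRK1 alpha 2, and received Est, as the labels name the additive, for 6 d from an age of 14 d. Its wild type received Est for the same 6 d. In the S1-labelled line the knockouts were of bZIP1 and bZIP53, and bZIP2, bZIP11 and bZIP44 were under inducible knockdown; it grew 5 d further without Est and then received it for 1 d. Its wild type had the same 1 d of Est. Plants of all 4 groups were 3 weeks old and stood in an extended night of 6 h before a common harvest. No group without Est or without the extended night is analysed here, so the effect of darkness on these genes was not measured. Whether replicates came from separate cultures is not in the labels, and p-values measure the spread between these libraries only, which may be technical.

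Proline is a protein amino acid that plants also accumulate under drought and salt stress and burn as an energy source when carbon is short. It is made from glutamate in 2 steps, by pyrroline-5-carboxylate synthetase (P5CS) and pyrroline-5-carboxylate reductase (P5CR), and is broken down to glutamate in mitochondria by proline dehydrogenase (ProDH) and pyrroline-5-carboxylate dehydrogenase (P5CDH). Arginine enters the same route after arginase splits it into urea and ornithine, since ornithine aminotransferase (OAT) turns ornithine into pyrroline-5-carboxylate. ProDH1 is a known target of group S1 bZIP factors, which bind an ACTCAT element in its promoter.

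The promoters of the ProDH and P5CS pairs are shown because the members of the first pair moved in opposite directions in the SnRK1-labelled line, and because P5CS1 was the enzyme whose response differed most in the negative direction between the lines. Each is the run of 250 bases before the annotated start of the gene in the RefSeq annotation of TAIR10.1, written 5′ to 3′ on the strand of the gene. ProDH1 is taken from chr3:12451557-12451806 (minus strand), ProDH2 from chr5:15500876-15501125 (plus strand), P5CS1 from chr2:16603320-16603569 (minus strand) and P5CS2 from chr3:20629296-20629545 (minus strand). Capitals mark matches to 1 of 3 motifs searched on both strands, namely ACTCAT, the G-box CACGTG and the C-box GACGTC; none of the 3 overlapped another in these promoters.
ProDH1: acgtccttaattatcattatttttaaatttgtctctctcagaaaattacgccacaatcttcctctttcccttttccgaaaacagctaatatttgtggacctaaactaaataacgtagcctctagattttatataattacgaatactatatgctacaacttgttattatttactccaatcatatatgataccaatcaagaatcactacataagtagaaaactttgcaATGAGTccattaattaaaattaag
ProDH2: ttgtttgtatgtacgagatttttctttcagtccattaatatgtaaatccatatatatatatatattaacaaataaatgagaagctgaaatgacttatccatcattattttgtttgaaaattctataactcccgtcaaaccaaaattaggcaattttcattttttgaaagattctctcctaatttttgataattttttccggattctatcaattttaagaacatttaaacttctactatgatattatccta
P5CS1: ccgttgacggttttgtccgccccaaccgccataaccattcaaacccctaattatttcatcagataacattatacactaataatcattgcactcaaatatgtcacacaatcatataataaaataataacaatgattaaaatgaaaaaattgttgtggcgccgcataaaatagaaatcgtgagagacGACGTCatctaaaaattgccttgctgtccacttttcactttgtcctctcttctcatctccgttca
P5CS2: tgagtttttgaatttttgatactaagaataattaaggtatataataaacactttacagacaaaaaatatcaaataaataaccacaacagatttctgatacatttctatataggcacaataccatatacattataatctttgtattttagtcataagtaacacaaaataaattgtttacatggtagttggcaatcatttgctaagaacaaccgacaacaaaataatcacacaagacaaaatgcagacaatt

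The ProDH1 promoter held a single ACTCAT, on the opposite strand, 24 to 19 bases before the start, and that of P5CS1 a single C-box 65 to 60 bases before it. The P5CDH promoter, not shown, held ACTCAT 2 times, 117 to 112 bases before the start on the opposite strand and 107 to 102 bases before it on the same strand. The other 6 promoters held none of the 3 motifs, and the G-box was in none of the 9. Among 26709 annotated genes, windows of the same length held ACTCAT in 12.31%, the G-box in 6.58% and the C-box in 2.24%, and ACTCAT 2 or more times in 1.02%. These matches describe the letters of the windows and no binding was measured.

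Library totals ran from 3760168 to 9403687 counts, and the 9 genes together took 0.222 to 0.295% of all counts in the SnRK1-labelled line against 0.564 to 0.661% in its wild type, and 0.248 to 0.257% in the S1-labelled line against 0.399 to 0.517% in its wild type. The fewest counts of a member in a library were 9, for ProDH2, and the most 47230, for ProDH1. ProDH1 had the highest mean level of the 9 in every group, so the shares above depend largely on it. The first catalytic subunit, KIN10, still gave reads, with a log2 fold change of -0.50 in the SnRK1-labelled line and of 0.10 with scaling by library totals. The second, KIN11, had 28.3, 29 and 43.4 CPM (counts relative to the library total after TMM scaling) in the SnRK1-labelled line and 98.4, 114 and 85.4 CPM in its wild type. The S1-labelled line had bZIP1 and bZIP53 at log2 fold changes of -2.62 and -2.26, but none of the 3 genes under inducible knockdown was called lower: bZIP2 had a log2 fold change of 0.01 ± 0.12, bZIP11 of -0.20 ± 0.34 and bZIP44, higher in 3 of 3 libraries, of 0.85 ± 0.41 (adjusted p = 0.979, 0.872 and 0.322). KIN11 was called lower in the S1-labelled line too (-0.80, adjusted p = 0.0135), a call lost without replicate 1 or 2 of the line or replicate 2 of its wild type (adjusted p 0.0567 to 0.0755). The lines are therefore named by their labels and any direction drawn from that line is of the line as labelled. Photosynthetic shoot markers RBCS1A, RCA and CAB1 summed to 3390 to 7250 CPM in the SnRK1-labelled line and 24000 to 32100 CPM in its wild type, and 3 of 3 were called lower there; in the S1-labelled line they summed to 31800 to 37600 CPM against 38800 to 51000 CPM, with 0 of 3 called. The 6 root markers summed to 10.5 to 21.7 CPM in the SnRK1-labelled line and 9.52 to 13.7 CPM in its wild type, but these sums join markers called in opposite directions. Of the 3 tested, CASP1 (0.361 to 0.627 CPM in the SnRK1-labelled line, 2.02 to 4.94 CPM in its wild type) and CASP2 (0 to 0.751 CPM in the line, 5.4 to 7.5 CPM in its wild type) were called lower, while NRT2.1 (8.9 to 20.9 CPM in the line, 0 in all 3 libraries of its wild type) was called higher. Root markers summed to 2.42 to 4.32 CPM in the S1-labelled line and 2.67 to 9.59 CPM in its wild type, with 0 of 3 called. Flower markers summed to 0.15 to 0.878 CPM in the SnRK1-labelled line and 1.98 to 8.08 CPM in its wild type, and the 1 tested, PI, was called lower. In the S1-labelled line they summed to 1.57 to 2.6 CPM, against 0.703 to 0.999 CPM in its wild type. PI was higher there in 3 of 3 libraries but not called (log2 fold change 1.21, adjusted p = 0.351). Seed storage markers summed to at most 0.289 CPM in any library. In whole seedlings fewer cells of a type and less RNA per cell cannot be told apart, and the part of tissue make-up in the changes below was not tested.

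ProDH1 (AT3G30775), the main dehydrogenase of proline breakdown, was lower in both lines than in their wild types. It had 1225, 1084 and 1709 CPM in the SnRK1-labelled line, against 6077, 6451 and 4816 CPM in its wild type. The S1-labelled line had 1186, 1197 and 1365 CPM, against 4082, 4154 and 3384 CPM in its wild type. Every library of a line lay below every library of its wild type, and the lines overlapped each other. The log2 fold change was -2.11 ± 0.22 in the SnRK1-labelled line (SE; 95% interval -2.58 to -1.65, Benjamini-Hochberg adjusted p = 2.58e-07 in edgeR's quasi-likelihood test) and -1.63 ± 0.22 in the S1-labelled line (-2.09 to -1.17, adjusted p = 0.00081). ProDH1 ranked 21 by p among 18388 genes in the S1-labelled line, and 1.61% of them had a larger change in either direction. In the SnRK1-labelled line, by contrast, 14.5% of genes had a larger change.

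The reductions of ProDH1 in the lines were not shown to differ in size. The SnRK1 response minus the S1 response was -0.48 ± 0.30 on the log2 scale (95% interval -1.11 to 0.15, adjusted p = 0.189). That interval holds 0 and also a reduction that is stronger by 1.11 in the SnRK1-labelled line. Without the third library of the SnRK1-labelled line, the highest of its 3, the difference was -0.73 (adjusted p = 0.0277). The other 19 of 20 alternatives did not call the difference, and over the 20 it ran from -0.73 to 0. The called reductions kept their calls under all 15 alternatives in each line, from -2.35 to -1.51 in the SnRK1-labelled line and from -1.72 to -1.51 in the S1-labelled line.

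ProDH1 remained an abundant transcript in all groups. Per kilobase of its longest annotated transcript it averaged 616 ± 151 CPM in the SnRK1-labelled line and 2660 ± 394 CPM in its wild type (SD, n = 3 each), and 575 ± 46 CPM in the S1-labelled line and 1780 ± 196 CPM in its wild type. By CPM per kilobase it ranked 64, 54 and 37 of 18227 genes in the SnRK1-labelled line and 30, 28 and 31 in its wild type. It ranked 139, 135 and 126 in the S1-labelled line, and 40, 45 and 58 in its wild type. Every library of a line ranked it further from the top than any library of its wild type did.

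ProDH2 (AT5G38710), the second proline dehydrogenase, went the other way in the SnRK1-labelled line. It had 58.9, 43.3 and 37.3 CPM there, against 6.43, 5.1 and 2.6 CPM in its wild type, and the groups did not overlap. Its log2 fold change was 3.19 ± 0.25 (95% interval 2.66 to 3.73, adjusted p = 1.15e-08), the highest among the 9 genes, and ran from 2.99 to 3.80 over the alternatives. The S1-labelled line had 5.31, 2.16 and 3.22 CPM, against 4.92, 5.47 and 5.2 CPM in its wild type, which overlap (log2 fold change -0.47 ± 0.33, adjusted p = 0.531). The responses of the lines differed by 3.66 ± 0.43 on the log2 scale (95% interval 2.76 to 4.57, adjusted p = 3.7e-06).

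Even so, ProDH2 stayed the minor transcript of the pair. Per kilobase it made up 4.94, 4.14 and 2.3% of the sum of ProDH1 and ProDH2 in the SnRK1-labelled line, against 0.114, 0.0853 and 0.0581% in its wild type. The shares were 0.481, 0.194 and 0.254% in the S1-labelled line and 0.13, 0.142 and 0.165% in its wild type. The share was higher in every library of both lines, but in the S1-labelled line this came with a lower level of ProDH1 rather than a called change of ProDH2. The coding sequences of the pair were 76.2% identical and shared no run of 50 bases.

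P5CDH (AT5G62530), which follows ProDH in the breakdown route, was not called in either line. It had 96.2, 82.5 and 70 CPM in the SnRK1-labelled line against 83, 73.6 and 79.4 CPM in its wild type, and these groups overlap (0.08 ± 0.12 on the log2 scale, adjusted p = 0.597). It had 59.8, 59.8 and 57.7 CPM in the S1-labelled line against 79.6, 67.3 and 84.5 CPM in its wild type, lower in 3 of 3 libraries (-0.39 ± 0.13, 95% interval -0.65 to -0.12, adjusted p = 0.122). Its level is uncertain, since 31.32% of its exon bases are overlapped on the opposite strand by SRO5 (AT5G62520), a gene singled out after the annotation was read. Whether the reads keep their strand is not stated in the sources read. SRO5 itself had 23.8, 25.7 and 21 CPM in the SnRK1-labelled line and 14.4, 17.1 and 21.9 CPM in its wild type, and 11.7, 15.5 and 12.3 CPM in the S1-labelled line and 13.9, 12.8 and 19 CPM in its wild type. SRO5 was called higher in the SnRK1-labelled line (log2 fold change 0.44, adjusted p = 0.0305) and in the difference between the lines (0.67, adjusted p = 0.0351), the direction of the P5CDH difference given below. Both calls of SRO5 were lost when single libraries were left out (adjusted p of up to 0.194 and 0.126), and the part of its reads in the values of P5CDH was not tested.

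**Figure D1:**
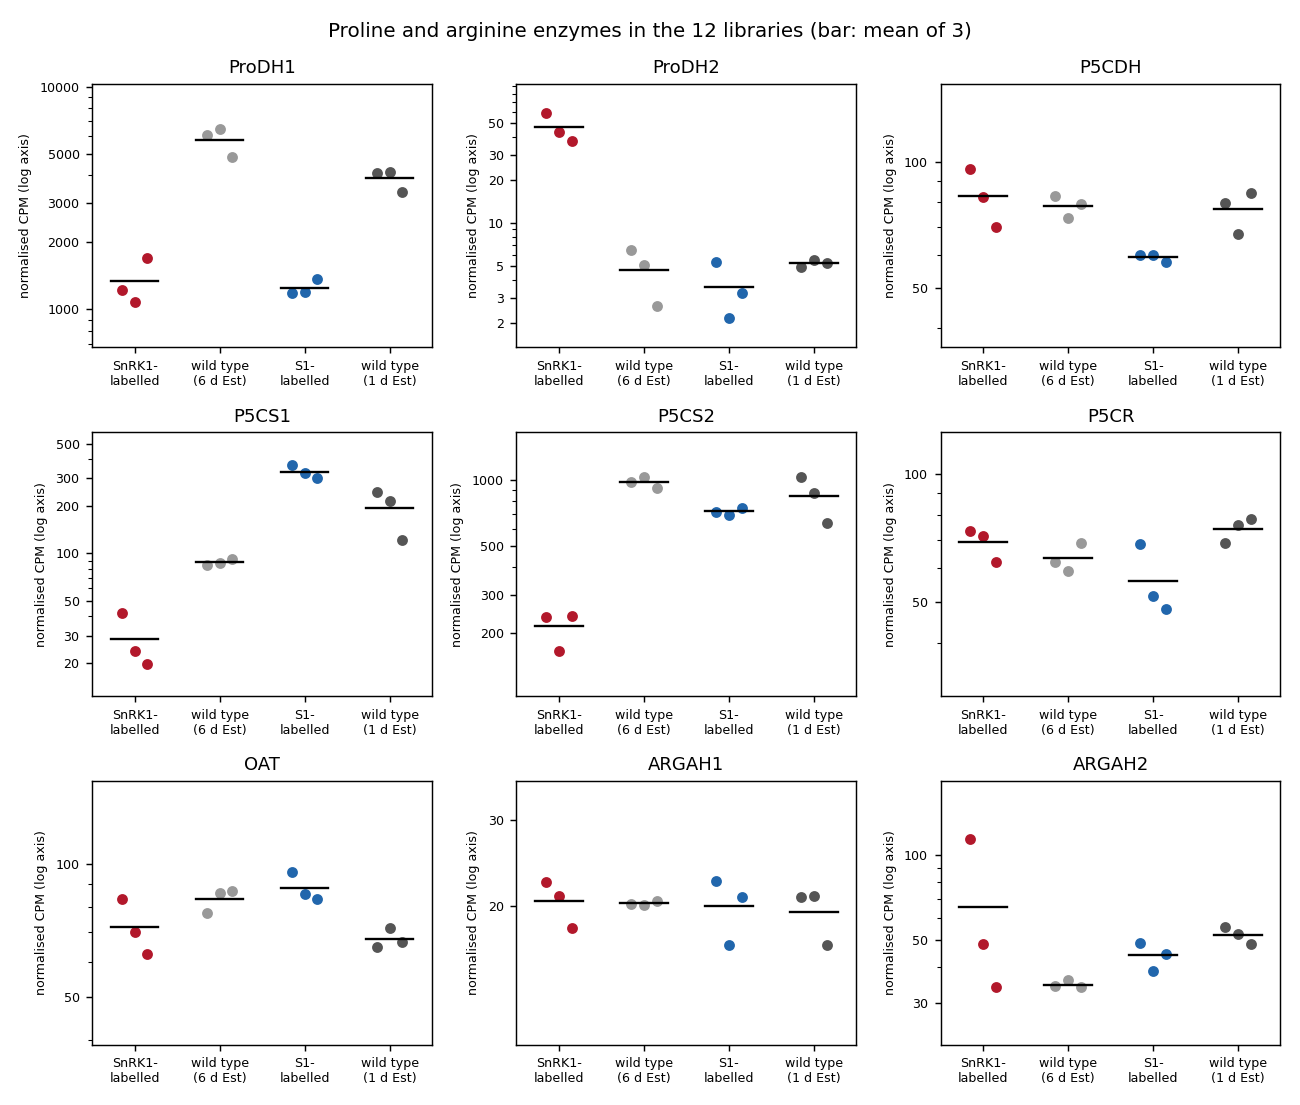
Normalised CPM of each of the 9 genes (log axes) in the 3 libraries of each group; points are libraries and bars are means of 3. ProDH1 lies lower in both lines than in their wild types, ProDH2 is at 37.3 to 58.9 CPM in the SnRK1-labelled line and at 6.43 CPM or less elsewhere, and P5CS1 is at 19.8 to 41.6 CPM in the SnRK1-labelled line and at 304 to 368 CPM in the S1-labelled line.

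P5CS1 (AT2G39800), the stress-inducible synthetase of proline synthesis, had its lowest level in the SnRK1-labelled line and its highest in the S1-labelled line. It had 41.6, 23.9 and 19.8 CPM in the SnRK1-labelled line, against 84.3, 86.6 and 92 CPM in its wild type. The S1-labelled line had 368, 323 and 304 CPM, against 247, 217 and 121 CPM in its wild type. Neither line overlapped its wild type, and the S1-labelled line was above all the other 9 libraries. The log2 fold change was -1.62 ± 0.25 in the SnRK1-labelled line (95% interval -2.16 to -1.08, adjusted p = 2.57e-05). It was 0.77 ± 0.24 in the S1-labelled line (0.27 to 1.26), which did not pass adjustment over all genes (adjusted p = 0.103). It was called higher there under 4 of 15 alternatives. These were library totals (0.89, adjusted p = 0.0344), no filter (0.77, adjusted p = 0.0287), the replicate block (0.81, adjusted p = 0.0313) and a fit of only the groups compared (0.78, adjusted p = 0.0222). The other 11 did not call it, with adjusted p of up to 0.316. Over the 15 it ran from 0.52 to 0.98. The difference between the responses was -2.38 ± 0.35 (95% interval -3.12 to -1.65, adjusted p = 2.79e-05).

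P5CS1 also differed between the wild types. The wild type with 6 d of Est lay below that with 1 d in all libraries, with a log2 fold change of -1.16 ± 0.24 (95% interval -1.67 to -0.64, adjusted p = 0.00568). It was the only 1 of the 9 genes called between them, and 4.95% of all genes tested had a larger change. The days of Est and anything else that differed between the experiments cannot be told apart here. The S1-labelled line is therefore set against its own wild type, in which the third library, at 121 CPM, was well below the other two.

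P5CS2 (AT3G55610), the synthetase known for housekeeping functions, was called lower in the SnRK1-labelled line and not called in the S1-labelled line, and the responses differed by test. It had 238, 166 and 241 CPM in the SnRK1-labelled line, against 977, 1027 and 914 CPM in its wild type, with no overlap. The S1-labelled line had 716, 695 and 745 CPM, against 1027, 871 and 636 CPM in its wild type, which overlap. The log2 fold changes were -2.18 ± 0.19 (95% interval -2.59 to -1.77, adjusted p = 3.83e-08) and -0.23 ± 0.18 (-0.62 to 0.16, adjusted p = 0.583), and their difference was -1.95 ± 0.26 (95% interval -2.50 to -1.39, adjusted p = 1.43e-05). P5CS2 had the most negative fold change of the 9 genes in the SnRK1-labelled line.

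P5CS2 was the more abundant synthetase per kilobase in all 12 libraries. P5CS1 made up 14.3, 12.1 and 7.26% of the sum of the pair in the SnRK1-labelled line and 7.58, 7.42 and 8.74% in its wild type, ranges that overlap. P5CS1 made up 32.8, 30.7 and 28% in the S1-labelled line, against 18.6, 19.2 and 15.3% in its wild type, so every library of that line was above. The coding sequences of the pair were 86.1% identical, with 4 shared runs of 50 bases, and 1.17% of the exon bases of P5CS2 are overlapped on the opposite strand.

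Set together per kilobase, the breakdown and synthesis genes had overlapping ratios in the SnRK1-labelled line and its wild type, and a lower ratio in the S1-labelled line than in its own. The sum of ProDH1 and ProDH2 over the sum of P5CS1 and P5CS2 was 5.86, 7.58 and 8.5 in the SnRK1-labelled line, against 7.26, 7.35 and 6.07 in its wild type. It was 1.41, 1.51 and 1.67 in the S1-labelled line, against 4.09, 4.88 and 5.7 in its wild type, with no overlap. No test was run on these ratios.

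**Figure D2:**
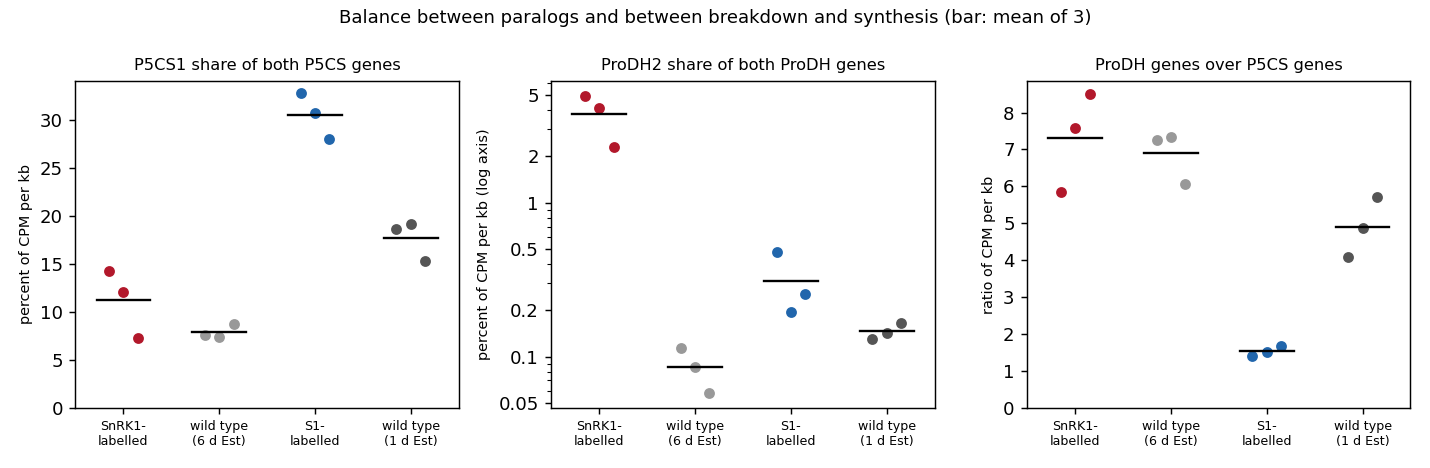
Shares and ratios of CPM per kilobase in each library; points are libraries and bars are means of 3. Left, P5CS1 as a percent of both P5CS genes, at 28 to 32.8% in the S1-labelled line; middle, ProDH2 as a percent of both ProDH genes on a log axis, at 2.3 to 4.94% in the SnRK1-labelled line; right, the summed ProDH genes over the summed P5CS genes, at 1.41 to 1.67 in the S1-labelled line and above 4 in the other groups.

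P5CR (AT5G14800), the reductase that completes proline synthesis, was called in neither line. It had 73.6, 71.5 and 62.2 CPM in the SnRK1-labelled line and 62.1, 59.3 and 69 CPM in its wild type, which overlap (log2 fold change 0.13 ± 0.13, adjusted p = 0.393). It had 68.4, 51.7 and 48.2 CPM in the S1-labelled line and 68.9, 75.8 and 78.2 CPM in its wild type, lower in 3 of 3 libraries but by a narrow gap (-0.40 ± 0.13, 95% interval -0.68 to -0.12, adjusted p = 0.13). Without the first library of the S1-labelled line, its highest, the value was -0.57 (adjusted p = 0.039). The other 14 of 15 alternatives did not call P5CR there, with adjusted p of up to 0.423. Over the 15 it ran from -0.57 to -0.28. Of the 50-base runs of its longest transcript 6.76% also occur in other genes, so part of its counts could be split with them.

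OAT (AT5G46180), the link between ornithine and pyrroline-5-carboxylate, was called in neither line, and its responses differed by test. It had 83.3, 70.1 and 62.4 CPM in the SnRK1-labelled line and 77.3, 85.9 and 86.9 CPM in its wild type, and the groups overlap (-0.21 ± 0.12 on the log2 scale, adjusted p = 0.126). Without the first library of the line, its highest, it was called lower, at -0.33 (adjusted p = 0.0254). With libraries scaled by their totals alone it was called higher, at 0.38 (adjusted p = 0.00849). Its direction thus depended on the setting. It had 95.9, 85.6 and 83.3 CPM in the S1-labelled line and 64.9, 71.6 and 66.6 CPM in its wild type, higher in 3 of 3 libraries (0.39 ± 0.12, 95% interval 0.13 to 0.64, adjusted p = 0.105), and was called with library totals (0.51, adjusted p = 0.0251) and with only the groups compared (0.40, adjusted p = 0.0316). The difference was -0.60 ± 0.17 (95% interval -0.95 to -0.24, adjusted p = 0.00669), but -0.13 (adjusted p = 0.541) with libraries scaled by their totals alone and -0.25 (adjusted p = 0.22) with scaling on the 5000 most expressed genes.

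Of the arginases, which release urea and ornithine from arginine, ARGAH1 (AT4G08900) kept nearly the same mean level in the 4 groups. It averaged 20.5 ± 2.24 CPM in the SnRK1-labelled line and 20.3 ± 0.209 CPM in its wild type, and 20 ± 3.04 CPM in the S1-labelled line and 19.4 ± 2.47 CPM in its wild type (SD, n = 3 each). Its log2 fold changes were 0.02 (95% interval -0.28 to 0.32) in the SnRK1-labelled line and 0.04 (-0.26 to 0.35) in the S1-labelled line.

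ARGAH2 (AT4G08870), the arginase known to respond to jasmonate, was called higher in the SnRK1-labelled line, a call that was lost without 1 of its libraries. It had 114, 48.3 and 34.1 CPM there, against 34.2, 36 and 34 CPM in its wild type, and the third library lay within the wild type. The log2 fold change was 0.91 ± 0.29 (95% interval 0.29 to 1.53, adjusted p = 0.0109), and 0.25 (adjusted p = 0.148) without the first library. The S1-labelled line had 48.9, 38.7 and 44.7 CPM, against 55.4, 52.3 and 48.2 CPM in its wild type, which overlap (-0.23 ± 0.29, adjusted p = 0.76). Its share of both arginases per kilobase was 83.6, 69.9 and 65.5% in the SnRK1-labelled line and 63, 64.3 and 62.5% in its wild type, and 68.6, 70.1 and 68.3% in the S1-labelled line and 72.8, 71.5 and 74.5% in its wild type. The coding sequences of the arginases were 87% identical, with 11 shared runs of 50 bases, so a small part of their counts could be split between them.

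Counted over the 9 genes, the SnRK1-labelled line had 2 called higher (ProDH2 and ARGAH2) and 3 lower (ProDH1, P5CS1 and P5CS2), with 4 not called. Over all genes tested, 68.4% were called in that comparison, 35.4% higher and 33% lower, so a share of 5 of 9 is no larger than the background. The median log2 fold change was 0.02 over the 9 genes and 0.04 over all genes tested. ProDH2 alone had every library of the line above its wild type and 3 had every library below, against 36.9% and 34% of all genes. With libraries scaled by their totals alone the median of all genes moved to 0.64, and with scaling on the 5000 most expressed genes to 0.40. Under both scalings ProDH1, P5CS1, P5CS2 and ProDH2 kept their directions and calls. P5CDH, P5CR and ARGAH1 became called higher, at 0.67, 0.72 and 0.62 with library totals, close to the shifted median. With library totals alone OAT also became called higher (0.38, adjusted p = 0.00849).

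Of the 9 genes 0 were called higher in the S1-labelled line by edgeR, DESeq2 or limma-voom, and ProDH1 alone was called lower. Over all genes tested 2.58% were called there, 1.63% higher and 0.952% lower. That share stands for 474 genes, and the count was 1029 with only the groups compared and 140 to 390 with 1 of the 6 libraries left out, more than 1.5 times fewer without any of them but replicate 1 of the wild type. At an unadjusted p under 0.05 P5CDH and P5CR were also lower and P5CS1 and OAT higher, with p between 0.00486 and 0.00792. Every library was above the wild type for 2 of the 9 genes and below it for 3, against 11.6% and 12% of all genes tested. The median log2 fold change was -0.23 over the 9 genes and 0 over all genes.

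**Figure D3:**
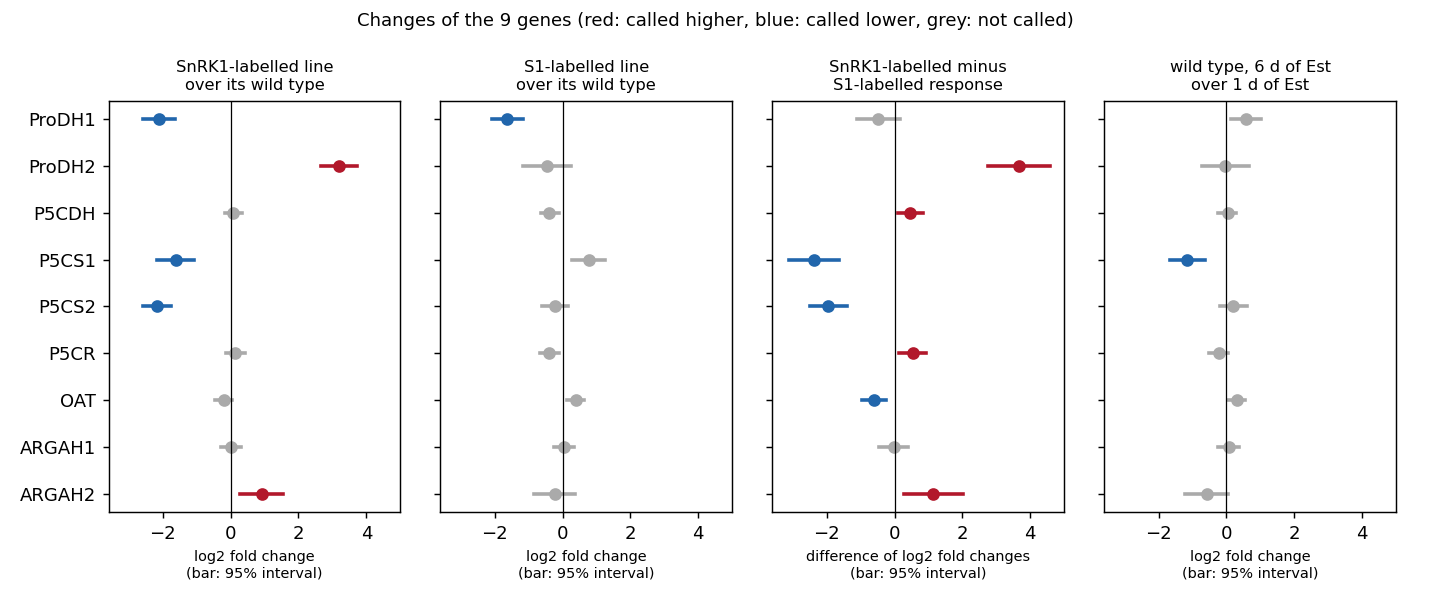
Log2 fold changes of the 9 genes with their 95% intervals in 4 contrasts, with genes called higher in red, called lower in blue and not called in grey. ProDH1 is called lower in both lines (-2.11 and -1.63), while ProDH2, P5CS1 and P5CS2 are called in the SnRK1-labelled line and in the difference of the lines, and P5CS1 alone is called between the wild types.

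The difference between the responses was called for 7 of the 9 genes, 4 higher and 3 lower in the SnRK1-labelled line relative to the S1-labelled line, against 54.5% of all genes tested (27.2% higher and 27.3% lower). Besides ProDH2, P5CS1, P5CS2 and OAT these were P5CDH (0.46 ± 0.18, adjusted p = 0.0353), P5CR (0.53 ± 0.19, adjusted p = 0.0241) and ARGAH2 (1.14 ± 0.41, adjusted p = 0.0269). Of the 12 libraries left out in turn, 9 ended the call of P5CDH, 8 that of P5CR and 5 that of ARGAH2, at adjusted p of up to 0.104, 0.0947 and 0.0731. The call of P5CDH held without replicate 3 of the SnRK1-labelled line, replicate 1 of its wild type and replicate 2 of the S1 wild type, and that of P5CR without replicate 3 of the SnRK1-labelled line and of its wild type and replicate 1 of the S1-labelled line and of its wild type. That of ARGAH2 was lost without replicate 1 of the SnRK1-labelled line (0.49), replicates 1 and 3 of its wild type, replicate 2 of the S1-labelled line and replicate 1 of its wild type.

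Between the wild types, 12.1% of all genes tested were called, 6.17% higher and 5.94% lower with 6 d of Est, and of the 9 genes P5CS1 alone. The 2227 genes called became 1211 to 1753 with 1 library left out, and the count was more than 1.5 times smaller without replicate 2 or 3 of either wild type. ProDH1 was higher with 6 d of Est in 3 of 3 libraries (log2 fold change 0.58 ± 0.21, 95% interval 0.13 to 1.03, adjusted p = 0.0851), and so was OAT (0.30, adjusted p = 0.114). ARGAH2 was lower in 3 of 3 libraries (-0.58, adjusted p = 0.221). A fit of only the groups compared called ARGAH2 lower (-0.59, adjusted p = 0.00218), and the other 14 of 15 alternatives did not call it. For every library above and every library below the counts were 2 of 9 each, against 17% of all genes each.

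The order of the 9 genes by CPM per kilobase was led by ProDH1 and then P5CS2 in all 4 groups. In the SnRK1-labelled line ProDH1 and P5CS2 were followed by P5CR (48), ARGAH2 (44.5), P5CDH (32), OAT (31.9), ProDH2 (23.1), ARGAH1 (13.9) and P5CS1 (9.86 CPM per kilobase), where the neighbours from P5CR to ProDH2 overlapped in their libraries, as did ARGAH1 with P5CS1. In its wild type the order was P5CR (44.1), OAT (37.1), P5CDH (30.4), P5CS1 (30.4), ARGAH2 (23.7), ARGAH1 (13.7) and ProDH2 (2.34 CPM per kilobase), and of these only P5CDH and P5CS1 overlapped. P5CS1 came after them at 115 CPM per kilobase in the S1-labelled line, above OAT (39.2), P5CR (39), ARGAH2 (30), P5CDH (22.8), ARGAH1 (13.5) and ProDH2 (1.77), with overlap between OAT and P5CR alone. P5CS1 had the same place at 67.6 in the wild type of that line, above P5CR (51.6), ARGAH2 (35.4), OAT (30.1), P5CDH (29.8), ARGAH1 (13.2) and ProDH2 (2.58), with overlap of P5CS1 with P5CR and of OAT with P5CDH. P5CS1 thus stood last of the 9 in the SnRK1-labelled line and right after P5CS2 in the S1-labelled line.

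Genes whose pattern was most like that of ProDH1 were sought by the Pearson correlation of log2 CPM over the 12 libraries among 13871 genes that averaged 5 CPM or more. The libraries fall into 4 groups, so these values describe mainly the group means. HAT1, a homeodomain-leucine zipper factor, came first (r = 0.981), with 35.5 ± 4.35 CPM in the SnRK1-labelled line and 108 ± 6.21 CPM in its wild type, and 40.2 ± 5.02 CPM in the S1-labelled line and 73.3 ± 6.68 CPM in its wild type. AT1G67480 (r = 0.977) and GDPD2, a glycerophosphodiester phosphodiesterase (r = 0.976), followed. For P5CS1 the closest were AT1G69160 (r = 0.988), AT2G23840 (r = 0.973) and AT1G31920 (r = 0.973), and AT1G69160 averaged 10.8 ± 3.37 CPM in the SnRK1-labelled line and 21.1 ± 1.77 CPM in its wild type, and 42.5 ± 2.16 CPM in the S1-labelled line and 34 ± 4.02 CPM in its wild type (SD, n = 3 each). Between ProDH1 and P5CS1 themselves r was 0.06. Deviations from the group means correlated with those of ProDH1 at 0.81 for HAT1, 0.77 for AT1G67480 and 0.87 for GDPD2. With those of P5CS1 they correlated at 0.83 for AT1G69160, 0.56 for AT2G23840 and 0.71 for AT1G31920. These genes were picked by a correlation that includes the same deviations, so the values are no separate test.

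Genes of the neighbouring routes moved in both directions in the SnRK1-labelled line, where 68.4% of all genes tested were called, 35.4% higher and 33% lower. Of 13 genes of arginine synthesis 6 were called higher and 1 lower, a smaller share than over all genes, with a median log2 fold change of 0.31 against 0.04. NAGS2, which makes N-acetylglutamate at the start of the route, had a log2 fold change of 2.53 ± 0.19, NAOD, an acetylornithine deacetylase, of 1.23 ± 0.13, and CARA, the small subunit of carbamoyl phosphate synthetase, of 0.65 ± 0.11. Of their exon bases 12.18% in NAGS2 and 11.99% in NAOD are overlapped on the opposite strand, so their values are uncertain. Of 11 genes of polyamine synthesis, which starts from arginine in this plant, 5 were higher and 3 lower (median 0.10). SPMS, a spermine synthase, was at 27.5, 29.7 and 24.8 CPM in the SnRK1-labelled line and 6.05, 3.79 and 4.04 CPM in its wild type, while ACL5, a thermospermine synthase, was at 10.7, 8.94 and 12.5 CPM in the line and 60.7, 61.4 and 52.8 CPM in its wild type; 11.96% of the exon bases of ACL5 are overlapped on the opposite strand. The spermidine synthase SPDS2 had a log2 fold change of -1.49 ± 0.14.

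The urea and transport lists had 2 of 4 and 4 of 8 tested genes called, against 68.4% of all genes. Of 4 tested genes of urea use 2 were higher and 0 lower, also with edgeR at an unadjusted p under 0.05, DESeq2 and limma-voom (median 0.40). They were the urea transporter DUR3 (log2 fold change 2.57 ± 0.25) and urease, URE (0.70 ± 0.16). Of 8 tested genes of proline and arginine transport 2 were higher and 2 lower (median 0.34). LHT1, a broad amino acid transporter of the plasma membrane that carries proline, was at 107, 113 and 77.2 CPM in the SnRK1-labelled line and 6.18, 5.93 and 5.19 CPM in its wild type, with no overlap (log2 fold change 4.08 ± 0.19, adjusted p = 2.54e-11). PROT2, a proline transporter, was at 27.5, 31.5 and 23.9 CPM in the line and 4.76, 8.56 and 6.64 CPM in its wild type (2.08 ± 0.20), and the mitochondrial carrier BOU had a log2 fold change of -1.21 ± 0.12.

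Of 7 genes that use glutamate, the product of proline breakdown, or GABA, 5 were called lower and 1 higher in the SnRK1-labelled line, against 33% and 35.4% of all genes tested. Their median log2 fold change was -0.78, against 0.04 over all genes, and no test was run on the list. Glutamate dehydrogenase GDH1 was at 195, 136 and 207 CPM in the line and 617, 559 and 527 CPM in its wild type (-1.66 ± 0.17), though 8.97% of its exon bases are overlapped on the opposite strand. GDH2 had a log2 fold change of -0.90 ± 0.18 and SSADH, the succinic semialdehyde dehydrogenase of GABA breakdown, of -1.09 ± 0.13. With libraries scaled by their totals alone GDH2 was not called (-0.32, adjusted p = 0.0755), while the other 14 of 15 alternatives kept its call.

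In the S1-labelled line, where 2.58% of all genes tested were called, the same lists held 2 called genes, both of arginine synthesis. Of 13 genes of arginine synthesis edgeR called 0 higher (1 at an unadjusted p under 0.05, 0 by DESeq2 and limma-voom) and 2 lower, CARA (log2 fold change -0.44 ± 0.11, adjusted p = 0.0386) and ASL, the argininosuccinate lyase (-0.50 ± 0.13, adjusted p = 0.0461). DESeq2 and limma-voom each called 1 lower and did not call ASL (adjusted p = 0.0673 and 0.0523). Of 15 alternatives, 4 kept the call of ASL and 7 that of CARA. The call of ASL was lost without any 1 of the 6 libraries compared (adjusted p 0.0529 to 0.224), and that of CARA without any but the first wild-type library (0.0888 to 0.17). The polyamine, urea, transport and glutamate lists had 0 genes called by edgeR in either direction, with medians of -0.07, 0.40, -0.12 and -0.26. At an unadjusted p under 0.05 they had 1 higher, in transport, and 2 lower, in glutamate and GABA use, where DESeq2 and limma-voom called 1 lower. LHT1 was at 13.5, 11.7 and 8.12 CPM in the S1-labelled line and 7.46, 6.42 and 6.6 CPM in its wild type, higher in 3 of 3 libraries but not called (0.70 ± 0.22, adjusted p = 0.106); without the third library of the line it was 0.88 (adjusted p = 0.0449). GDH1 was at 423, 333 and 313 CPM in the line and 515, 503 and 497 CPM in its wild type, lower in 3 of 3 libraries and not called (-0.50 ± 0.17, adjusted p = 0.128).

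**Figure D4:**
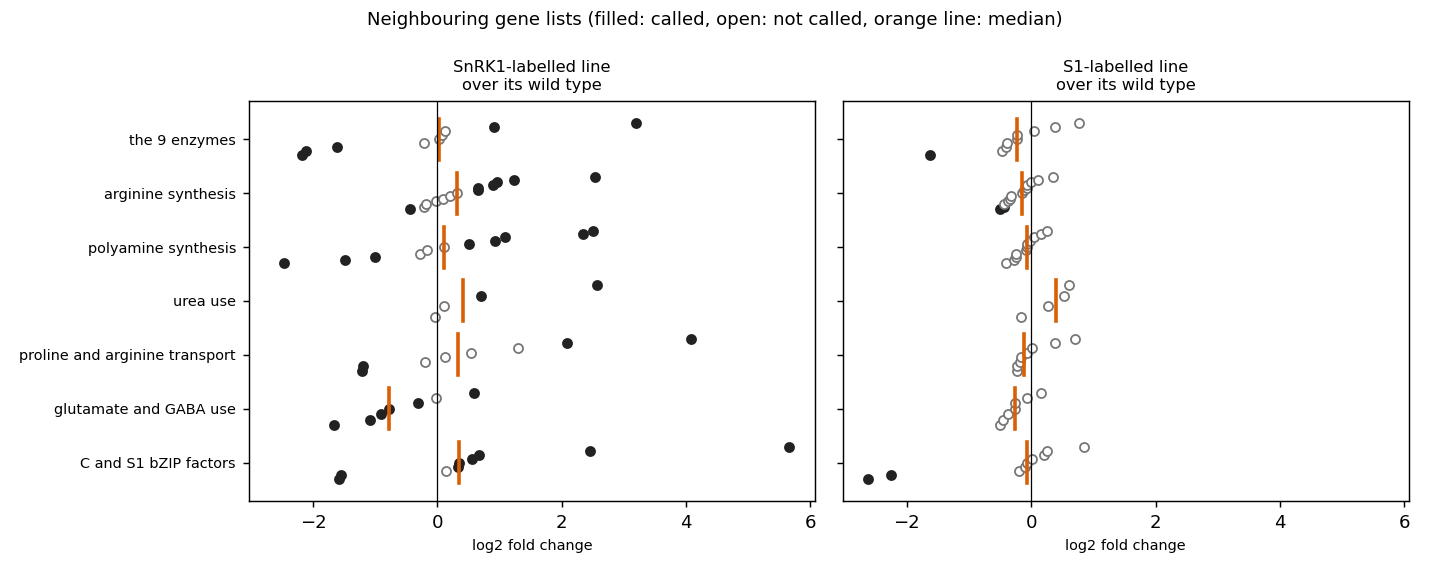
Log2 fold changes of the tested genes in the 9 enzymes and in 6 lists of neighbouring genes, in the SnRK1-labelled line (left) and the S1-labelled line (right), each over its wild type and on the same axis. Filled points were called, open points were not, and orange lines are list medians; the glutamate and GABA list has its median at -0.78 on the left and -0.26 on the right.

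The bZIP factors of the C and S1 groups did not all move one way in the SnRK1-labelled line. Of 9 genes 6 were called higher and 2 lower, against 35.4% and 33% of all genes tested (median log2 fold change 0.34, against 0.04). bZIP1 had a log2 fold change of -1.55 ± 0.17 and bZIP63 of -1.59 ± 0.15, while bZIP11 had 5.66 ± 0.19 and bZIP53 0.56 ± 0.12. The knocked-out genes bZIP1 and bZIP53 were the 2 of 9 called in the S1-labelled line. Each of the 5 S1 genes has the same counts as another locus in every library, so each value is 1 measurement of a pair of loci. No relation between these levels and those of ProDH1 was tested.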

How the data were processed

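RNA of 12 seedling libraries was sequenced. A NEBNext kit made the messenger RNA libraries, per the labels' protocols. The submitters' processing notes name FastQC, Bowtie 0.12.8, SAMtools 0.1.18 and TAIR10; the counter and the strand setting are not stated in the sources read. Each deposited file gives the raw counts of 1 library by gene, per the file headers; 0 library columns were left unmatched.

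Testing used edgeR 4.0.16 (R 4.3.3) with filterByExpr at a minimum count of 10, TMM scaling (trimmed mean of M values), and 1 quasi-likelihood fit of all 12 libraries with group as the only term (common biological coefficient of variation 13.2%). Calls required an adjusted p (Benjamini-Hochberg over 18388 genes) under 0.05. Standard errors came from the F statistic and 95% intervals from its degrees of freedom. The code was tested on simulated counts. CPM per kilobase uses the longest transcript of TAIR10.1 (28009 of 28775 loci matched); exon overlaps, shared runs and promoters came from it, with Biopython 1.88. Figures used Python 3.11.15 and matplotlib 3.10.9.

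The 9 genes and all lists were chosen with earlier results of these data known. By rule the text names the 9 genes, the targeted genes, up to 3 called genes with the smallest p of each neighbouring list per line, and the 3 genes most like ProDH1 and P5CS1. Alternatives were library totals, relative log expression factors, TMM on the 5000 most expressed genes, limma-voom (limma 3.58.1), DESeq2 1.42.0, a filter of 5 CPM in 3 libraries, no filter, a replicate block, a fit of only the groups compared, and each library left out. Within groups, libraries correlated at r = 0.97 to 0.986 and differed by more than counting noise.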

Additional observations from a re-analysis of the deposited data

Results flagged for a closer look

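The response of 7 of the 9 genes differed between the lines by the test of the difference itself (SnRK1 response minus S1 response, log2 scale, edgeR's quasi-likelihood test with Benjamini-Hochberg adjustment over all genes). ProDH2 differed by 3.66 (adjusted p = 3.7e-06), since it was higher in 3 of 3 libraries of the SnRK1-labelled line and overlapped its wild type in the S1-labelled line. P5CS1 differed by -2.38 (adjusted p = 2.79e-05), with 3 of 3 libraries lower in the SnRK1-labelled line and 3 of 3 higher in the S1-labelled line. P5CS2 differed by -1.95 (adjusted p = 1.43e-05), with 3 of 3 libraries lower in the SnRK1-labelled line. The other differences were smaller: OAT by -0.60 (adjusted p = 0.00669), P5CR by 0.53 (adjusted p = 0.0241), ARGAH2 by 1.14 (adjusted p = 0.0269) and P5CDH by 0.46 (adjusted p = 0.0353). Over all genes tested 54.5% differed in this way. The experiments also differ in the days of Est, so the line and the length of treatment cannot be told apart in these differences.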

How the results depend on the processing

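With library totals alone 6 of the 9 genes were called higher in the SnRK1-labelled line and with TMM on the 5000 most expressed genes 5, against 2. With library totals OAT there turned to 0.38, KIN10 to 0.10 and ASL to 0.58 (0.34 on the 5000 genes). The share of all calls that were higher was 78.1% and 68.7% under these scalings in the SnRK1-labelled line against 51.8%, 74.7% and 68.4% in the difference against 49.9%, 33.5% and 39.3% between the wild types against 51%, and 84.5% in the S1-labelled line with totals against 63.1%. In the S1-labelled line 2 of the 9 genes were called higher with library totals and 2 with only the groups compared (P5CS1 and OAT), 1 without a filter and 1 with the replicate block (P5CS1, 0.81, adjusted p = 0.0313), against 0. All genes called there numbered 1029 with only the groups compared, against 474. Between the wild types 1 of the 9 was called higher with DESeq2 and 1 with only the groups compared (ProDH1). That last fit called 2 lower (P5CS1 and ARGAH2). The causes were not tested.

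Leaving out each library in turn gave 140 to 390 genes called in the S1-labelled line (312, 147 and 284 without its replicates 1, 2 and 3, and 140 and 169 without replicates 2 and 3 of its wild type), and 1 to 2 of the 9 lower. It gave 1211 to 1753 genes between the wild types, against 2227 (1211 and 1263 without replicates 2 and 3 at 6 d of Est, and 1373 and 1262 without those at 1 d). The SnRK1-labelled line had 1 to 2 of the 9 higher, and the difference 1 to 4. Replicate numbers did not pair a line with its wild type (correlations of deviations -0.09 to 0.12 for equal numbers), so the block is given only as an alternative. Direction and side of the threshold held in 126 of 135 recomputed values of the 9 genes for the SnRK1-labelled line, 128 of 135 for the S1-labelled line, 153 of 180 for the difference and 132 of 135 between wild types; values not called in either fit count as held whatever their sign. The fit of only the groups compared could not be applied to the difference. ProDH2, with 9 to 480 counts a library, has the least depth.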
